A study of Mus musculus with 5 samples.

Results

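The genes described here are 9 mouse genes that act on the actin cytoskeleton or on the postsynaptic side of dendritic spines, Cyfip1, Cyfip2, Tanc1, Tanc2, Dapk1, Pdlim5, Mical1, Mical2 and Mical3, of 22532 genes in the count files. Cyfip1, Tanc1, Dapk1, Pdlim5 and Mical2 were picked by the study when it compared fed with fasted mice in the central lateral amygdala neurons that it calls NTS/Tac2, and the others were added as paralogs. Their fed against fasted values are therefore given as descriptions, with no test in the class that stands for those neurons, and nothing is read from the calls counted in the other classes, which come from the same libraries. Differences between neuron classes were not used to choose the genes, and these were tested. The levels in the class that stands for those neurons enter both comparisons, so the tests of that class are not independent of the choice.

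Nuclei of the central amygdala (CeA), an inhibitory forebrain region that takes part in the control of feeding, were sequenced in 5 libraries, and 1 male and 1 female mouse were pooled for each. Fed replicates 1 and 2 and fasted replicates 1 and 2 came from C57BL6 mice of 8 weeks (C57BL/6NRj in the study's methods), and the fasted mice had been without food for 20 hours (replicate 1) and 21 hours (replicate 2). Fed replicate 3 came from Htr2a-Cre mice of 12 weeks that carried a Cre-dependent mCherry virus (AAV-DIO-mCherry), in which Cre is driven from an Htr2a transgene, so this library differs from the others in genotype, age and virus. Each library counts as 1 sample.

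Dendritic spines are small protrusions that carry most excitatory synapses, and their shape is set by branched actin filaments. CYFIP proteins sit in the WAVE complex, which passes signals from the GTPase RAC to the actin nucleator Arp2/3, and they also bind the translational repressor FMRP. TANC proteins are scaffolds that bind PSD-95, DAPK1 is a calcium/calmodulin-dependent kinase that acts on NMDA receptors, PDLIM5 (also called ENH) is an adaptor with PDZ and LIM domains that binds alpha-actinin and protein kinase C, and MICAL proteins are enzymes that oxidize actin and take filaments apart downstream of semaphorin receptors.

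A nucleus was kept when it had 500 to 8000 genes and less than 0.8% of its unique molecular identifiers (UMIs, each counting 1 captured RNA molecule) from mitochondrial genes, which left 7161 nuclei, 1130 to 1734 per library. Median depth ranged from 6608 UMIs per nucleus in fasted replicate 1 to 16367 in fasted replicate 2, and 3 barcodes were shared between the kept nuclei of different libraries. Of 6020 nuclei with a UMI of Gad1 or Gad2, classes were gated by UMIs of 1 marker each, and each class is called by its gate. The Dnah5 gate, meant for the NTS/Tac2 neurons, took 302 nuclei, 41 to 90 per library, and their mean level of Vipr2 was 263 CPM (UMIs per 1000000 UMIs of the class in a library), of Tac2 126 CPM and of Nts 47.8 CPM, against at most 32.5, 26.6 and 16.0 CPM in the 6 other classes tested. Crh, whose neurons the study places largely in the NTS/Tac2 cluster, did not follow these markers. It was at 11.3 CPM in the Dnah5-gated and 21.1 CPM in the Pde1c-gated nuclei, and at most 2.01 CPM in the other classes tested. The Dnah5-gated nuclei also held Prkcd at 118 CPM and Sst at 74.5 CPM, against 576 and 406 CPM in the classes gated on those genes. The Prkcd (437 nuclei), Calcrl (347), Sst (175), Foxp2 (581, intercalated cells), Rarb (917, amygdalostriatal area) and Pde1c (349) gates also gave at least 10 nuclei in every library. The study sets its Foxp2, Rarb and Pde1c clusters outside the CeA. It assigns Pde1c to the IPAC, the interstitial nucleus of the anterior commissure's posterior limb. A further 2713 inhibitory nuclei passed no gate. The Dlk1, Tac1 and Vdr gates did not, with 102, 41 and 56 nuclei in all, and were not tested.

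The genes lie on 7 chromosomes of GRCm39. Cyfip1 is at chr7:55491479-55582381 on the plus strand and Cyfip2 at chr11:46084550-46203686 on the minus strand. Tanc1 is at chr2:59442343-59678250 and Tanc2 at chr11:105480539-105820130, both on the plus strand. Dapk1 is at chr13:60749687-60911005 on the plus strand and Pdlim5 at chr3:141945345-142101830 on the minus strand. Mical1 spans only 11.2 kb at chr10:41351835-41363028, Mical2 187.3 kb at chr7:111825003-112012313 and Mical3 199.4 kb at chr6:120908668-121108039. UMIs were counted over exons and introns of these spans. Nipa2, Fndc9, Marchf10 and Smpd2 overlap Cyfip1, Cyfip2, Tanc2 and Mical1 on the opposite strand, and how reads of such pairs were divided was not examined.

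The promoters of the CYFIP and TANC pairs are shown. Cyfip1 and Tanc1 were called in more neuron classes than their paralogs, as given by class after the levels. So was Mical2 (2 classes, against 1 for Mical3), and the windows of the MICAL genes are not shown. Each window runs from 250 bases before to 50 bases after the start of the canonical transcript, in the direction of transcription, from the GRCm39 genome and the GENCODE annotation. Capitals mark matches of the GC box GGGCGG on either strand. The windows are chr7:55491550-55491849 (plus strand), chr11:46203145-46203444 (minus strand), chr2:59442093-59442392 (plus strand) and chr11:105480289-105480588 (plus strand), in the order given.
Cyfip1: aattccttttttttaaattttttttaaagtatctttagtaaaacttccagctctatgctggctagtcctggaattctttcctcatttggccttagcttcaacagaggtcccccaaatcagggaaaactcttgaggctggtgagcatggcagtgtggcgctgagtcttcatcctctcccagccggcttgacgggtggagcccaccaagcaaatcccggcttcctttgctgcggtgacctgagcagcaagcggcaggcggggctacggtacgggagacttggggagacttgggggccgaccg
Cyfip2: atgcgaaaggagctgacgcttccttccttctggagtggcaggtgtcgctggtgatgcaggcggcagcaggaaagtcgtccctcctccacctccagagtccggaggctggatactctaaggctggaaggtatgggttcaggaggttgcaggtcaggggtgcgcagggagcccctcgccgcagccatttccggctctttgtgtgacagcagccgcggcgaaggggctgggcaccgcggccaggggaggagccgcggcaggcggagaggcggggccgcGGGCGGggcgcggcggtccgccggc
Tanc1: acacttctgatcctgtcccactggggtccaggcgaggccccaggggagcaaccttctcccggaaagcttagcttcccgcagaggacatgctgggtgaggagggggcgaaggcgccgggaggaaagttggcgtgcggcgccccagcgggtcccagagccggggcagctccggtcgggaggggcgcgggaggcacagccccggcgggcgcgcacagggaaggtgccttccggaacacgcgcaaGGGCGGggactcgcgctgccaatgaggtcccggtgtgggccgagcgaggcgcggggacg
Tanc2: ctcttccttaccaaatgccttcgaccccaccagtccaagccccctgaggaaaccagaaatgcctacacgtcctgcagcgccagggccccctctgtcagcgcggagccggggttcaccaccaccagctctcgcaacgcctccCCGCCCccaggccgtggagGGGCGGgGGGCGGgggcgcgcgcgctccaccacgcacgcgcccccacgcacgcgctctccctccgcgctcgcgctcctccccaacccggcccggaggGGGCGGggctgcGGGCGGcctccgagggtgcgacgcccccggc
The Cyfip1 window held 11 CpG dinucleotides and no GC box, and the Cyfip2 window held 27 and 1. The Tanc1 window held 31 CpG dinucleotides and 1 GC box, and the Tanc2 window held 35 and 5. The median of 21757 promoter windows was 11 CpG dinucleotides, and 42.5% of them held a GC box. Among the other genes, Dapk1 had 31 CpG dinucleotides, Mical2 18, Mical1 16, Mical3 7 and Pdlim5 6. None of the 9 windows held the cAMP response element TGACGTCA (2.45% of all windows) or the forkhead motif GTAAACA (3.15%), and the E-box CACGTG (7.82%) was found in the Mical2 window alone. The Cyfip1, Cyfip2, Mical1 and Mical3 windows lie within the gene spans, so other annotated transcripts of these genes start further upstream. Windows at those starts were not read. These are counts of letters, and nothing about binding was measured.

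The neuronal members fell into an abundant and a scarce group. Per 10 kb of gene span, the mean level in the Dnah5-gated nuclei was 44.2 CPM for Dapk1, 37.6 for Cyfip1, 34.3 for Mical3, 28.2 for Cyfip2 and 25.7 for Tanc2. On the same scale it was 4.64 CPM for Pdlim5, 3.05 for Tanc1, 1.94 for Mical2 and 0.445 for Mical1. Tanc2 and Mical3 thus stood well above Tanc1 and Mical2, while the CYFIP genes lay closer together.

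Whether a member marks a neuron class was asked by comparing each gated class with the mean of the 6 others. This was 1 edgeR quasi-likelihood fit over 10086 genes, with the library as a block. The Foxp2, Rarb and Pde1c classes, whose clusters the study sets outside the CeA, were among the 7, and ungated nuclei were not. A call is therefore not a contrast among CeA classes alone. Of the 8 members tested, 5 passed an adjusted p of 0.05 in the Dnah5-gated nuclei, where 19.1% of all genes did. Over the 7 classes, 18 of 56 comparisons of a member with a class passed, where 18.7% of all such comparisons did. The Prkcd- and Foxp2-gated nuclei had 4 calls of members each (31.3% and 23.2% of all genes passed there), the Rarb- and Pde1c-gated nuclei 2 each (16.7% and 12.3%), the Calcrl-gated nuclei 1 (15.6%) and the Sst-gated nuclei none (12.8%). In the Sst-gated nuclei the likelihood ratio test and DESeq2 also called none, and 2 members had an unadjusted p under 0.05. Tanc1 was called there without fasted replicate 1 (0.64), and Mical2 in the fed libraries alone. Mical1 was too low to be tested.

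Cyfip1 was called in 5 of 7 classes and Cyfip2 in none. Pdlim5 was called in 4, and in the fed libraries alone Cyfip1 and Pdlim5 were called in 4 each. Cyfip1 in the Dnah5-gated nuclei was at 318, 271 and 257 CPM in fed replicates 1, 2 and 3 and at 532 and 329 CPM in fasted replicates 1 and 2. Its level was 1.52-fold that of the other classes (log2 difference 0.61 ± 0.08 SE, adjusted p = 3.4e-07 by edgeR), and in the Prkcd-gated nuclei it was 1.45-fold (0.54 ± 0.08). Cyfip1 was lower in the Pde1c-, Foxp2- and Rarb-gated nuclei, by log2 differences of -0.50, -0.47 and -0.30, and the call in the Rarb-gated nuclei was lost without fed replicate 1 (-0.24). In the order of mean levels, Dnah5 (341 ± 111 CPM, SD, n = 5) and Prkcd (326 ± 46.9 CPM) overlapped, as did Calcrl (253 ± 35.7 CPM) and Sst (227 ± 42.5 CPM). Rarb (188 ± 20.7 CPM), Foxp2 (175 ± 25.5 CPM) and Pde1c (164 ± 24.0 CPM) overlapped at the low end. Libraries of neighbouring groups overlapped too, with Calcrl reaching 293 CPM against 257 CPM at the lowest in Dnah5. Sst went down to 160 CPM against 219 CPM at the highest in Rarb.

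Cyfip2 lay between 271 CPM (Foxp2) and 336 CPM (Dnah5), a range of 1.24-fold against 2.08-fold for Cyfip1. Its Dnah5-gated values were 348, 346 and 399 CPM in the fed and 316 and 271 CPM in the fasted libraries, and the log2 difference from the other classes, 0.20 ± 0.08, had an adjusted p of 0.070 (edgeR), but passed without fasted replicate 2 (0.25). The share of Cyfip1 in the UMIs of the pair was 53.6% ± 5.30 (SD, n = 5) in the Prkcd-gated, 49.7% ± 9.27 in the Dnah5-gated and 35.2% ± 3.06 in the Pde1c-gated nuclei. It was above the mean of the other classes in 5 of 5 libraries in the first and second of these, by 11.4 and 6.92 percentage points, and below it in 5 of 5 libraries in the third, by 10.0. The exact two-sided permutation test gave p = 0.0625 for each, the smallest that 5 libraries allow, and an adjusted p of 0.164 over 21 tests of a share in a class. In the Dnah5-gated nuclei the mean share was 43.6% in the fed and 58.8% in the fasted libraries. In the fed libraries it was 50.0% in the Prkcd-gated, 45.9% in the Calcrl-gated and at most 38.6% in the other classes. Cyfip1 was picked on fed against fasted, so its Dnah5 share over all 5 libraries is not free of that choice.

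**Figure D1:**
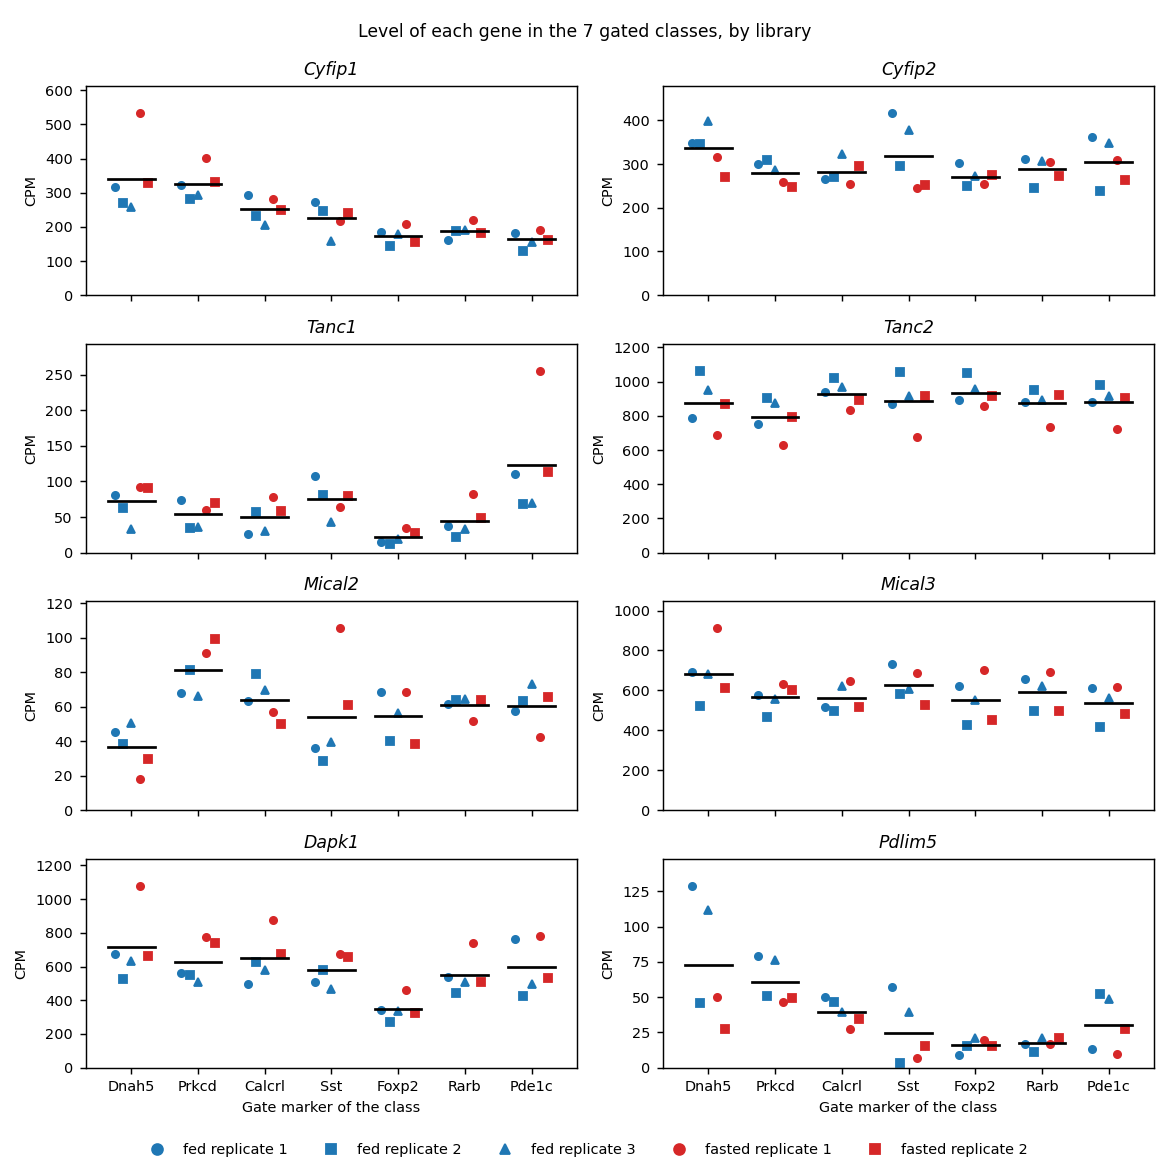
Level (CPM, y axis from 0) of 8 members in the 7 gated classes (x axis), with 1 point per library (blue fed, red fasted, shape by replicate number) and a line at the mean of the 5 libraries. Cyfip1 falls from 341 CPM in the Dnah5 class to 164 CPM in the Pde1c class, while Cyfip2 stays between 271 and 336 CPM.

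Tanc1 had the widest range of the members tested, 5.73-fold, and was highest outside the Dnah5 class. It was at 110, 68.3 and 69.8 CPM in the fed and 255 and 113 CPM in the fasted libraries of the Pde1c-gated nuclei, and fasted replicate 1 stood apart there. In the Foxp2-gated nuclei it was at 15.3, 12.7 and 18.5 CPM in the fed and 34.3 and 26.9 CPM in the fasted libraries. Against the mean of the other classes, Pde1c was 2.38-fold higher (log2 difference 1.25 ± 0.15 SE) and Foxp2 was lower by a log2 difference of -1.54 ± 0.20, both called. In the Dnah5-gated nuclei (mean 72.0 ± 24.6 CPM) Tanc1 differed by 0.42 ± 0.17 with an adjusted p of 0.077 (edgeR), which did not pass, although it did without fasted replicate 1 (0.48).

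Tanc2 was the least variable member, from 791 CPM in the Prkcd-gated to 934 CPM in the Foxp2-gated nuclei, a range of 1.18-fold. It was called in 1 class, Prkcd, with a log2 difference of -0.23 ± 0.05. The Dnah5-gated nuclei differed by -0.04 ± 0.05 (adjusted p = 0.70 by edgeR). Tanc1 gave 12.4% ± 7.98 of the pair's UMIs in the Pde1c-gated, 7.90% ± 3.37 in the Dnah5-gated and 2.30% ± 1.06 in the Foxp2-gated nuclei.

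Dapk1 was highest in the Dnah5-gated nuclei, where it was at 672, 525 and 630 CPM in the fed and 1078 and 664 CPM in the fasted libraries. Its level there was 1.27-fold that of the other classes (0.34 ± 0.08 SE on the log2 scale, adjusted p = 0.0019 by edgeR). It was lowest in the Foxp2-gated nuclei, at 347 ± 68.9 CPM (SD, n = 5), with a log2 difference of -0.83 ± 0.09. The Calcrl-gated nuclei were called higher by 0.25 ± 0.08 (adjusted p = 0.035 by edgeR), a call that was lost when any of fed replicates 2 and 3 or fasted replicates 1 and 2 was left out, with log2 differences of 0.18, 0.24, 0.23 and 0.23.

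Pdlim5 was scarce but uneven. It was at 129, 45.5 and 112 CPM in the fed and 50.0 and 27.0 CPM in the fasted libraries of the Dnah5-gated nuclei, which rest on 306 UMIs in all, and fed replicate 2 lay with the fasted libraries. The Dnah5 and Prkcd classes were 2.25-fold and 2.02-fold above the others (log2 differences 1.17 ± 0.21 and 1.01 ± 0.20). The Foxp2 and Rarb classes were lower, by -1.09 ± 0.25 and -0.95 ± 0.22. All 4 of these differences passed.

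The MICAL genes were called in different classes. Mical3 was at 693, 522 and 680 CPM in the fed and 910 and 612 CPM in the fasted libraries of the Dnah5-gated nuclei and was called there alone, by a log2 difference of 0.23 ± 0.06 (adjusted p = 0.0068 by edgeR). Without fasted replicate 1 that difference was 0.18 and was not called. Over the 5 libraries Mical2 had its lowest mean of the 7 tested classes in the Dnah5-gated nuclei, at 45.1, 38.4 and 50.7 CPM in the fed and 18.0 and 29.5 CPM in the fasted libraries, a log2 difference of -0.77 ± 0.18 from the other classes (adjusted p = 0.0014 by edgeR) that was -0.67 and not called in nuclei of at least 4000 UMIs thinned to that number, where the gates were also halved and the Sst class dropped out. In the fed libraries its mean was 44.7 CPM in the Dnah5-gated and 34.7 CPM in the Sst-gated nuclei. Of the 7 tested classes Mical2 was highest in the Prkcd-gated nuclei, at 81.1 ± 14.3 CPM (SD, n = 5), by 0.56 ± 0.14. This call was lost without fasted replicate 2 (0.40). In the inhibitory nuclei that passed no gate, which were not part of this comparison, Mical2 was at 88.7 ± 9.47 CPM. Mical2 gave 5.29% ± 2.09 of the UMIs of the Mical2 and Mical3 pair in the Dnah5-gated and 12.5% ± 1.95 in the Prkcd-gated nuclei.

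Since 2 of the libraries in this comparison came from fasted mice, it was also made in the 3 fed libraries alone. The calls in the Dnah5-gated nuclei then numbered 2 in place of 5, where 12.0% of all genes passed in place of 19.1%. Cyfip1 (log2 difference 0.43, adjusted p = 0.0076 by edgeR) and Pdlim5 (1.49, against 1.17 over all 5 libraries) still passed. The fed values of this class are part of the contrast on which the study picked both genes, so this comparison is not free of that choice. Dapk1, Mical3 and Mical2 had differences of 0.29, 0.15 and -0.39 and did not pass (adjusted p = 0.107, 0.279 and 0.109 by edgeR). In the Sst-gated nuclei Mical2 was called (log2 difference -0.84, adjusted p = 0.0099 by edgeR). Over the 7 classes, 15 of 56 comparisons passed in the fed libraries, where 12.9% of all such comparisons did.

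Nuclei without Gad1 and Gad2 UMIs gave a different balance of the paralogs. In 304 nuclei gated on the astrocyte gene Slc1a2, Mical2 was at 803, 693 and 528 CPM in the fed and 801 and 690 CPM in the fasted libraries. Mical1, at 0 to 3.28 CPM in every library of the 7 neuronal classes, was at 17.3 to 35.5 CPM. Cyfip2 was at 78.4 ± 30.8 CPM (SD, n = 5) there, and Cyfip1 gave 76.5% ± 8.46 and Mical2 81.4% ± 5.996 of the UMIs of their pairs. In 101 nuclei gated on the oligodendrocyte gene St18, Mical3 was at 906 ± 457 CPM, Mical2 at 9.23 ± 14.6 CPM and Mical1 at 0 in every library. By library, Mical3 was at 658, 682 and 438 CPM in the fed and 1552 and 1201 CPM in the fasted libraries there. These classes were not part of the test.

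The neuronal classes too small for the test are given as values. Mical2 was at 122 ± 19.7 CPM (SD, n = 5) in the Dlk1-gated nuclei, above its mean in each of the 7 classes tested, and at 23.9 ± 23.5 CPM in the Vdr-gated nuclei. Tanc1 was at 8.69 ± 10.1 CPM in the Vdr-gated nuclei, with no UMI in fed replicate 2 and fasted replicate 1. Cyfip1 was at 236 ± 61.8 CPM in the Dlk1-gated, 173 ± 50.2 CPM in the Tac1-gated and 245 ± 30.3 CPM in the Vdr-gated nuclei.

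Because Mical2 and Pdlim5 (253 ± 89.3 CPM) were high in the astrocyte-gated nuclei, 6 astrocyte markers were summed in the neuronal classes. Their sum was 224 to 396 CPM in the Dnah5-gated libraries, 2.95% of the sum in the astrocyte-gated nuclei, and 3.02% in the Sst-gated nuclei, against 0.966% to 1.61% in the other classes. Each of the 6 had UMIs in at least 1 library of the Dnah5-gated nuclei. Slc1a2 made up most of the sum there (318 ± 69.6 CPM), with Aqp4 at 2.04 ± 1.36 CPM and Gja1 at 1.66 ± 1.63 CPM. Pdlim5 in the Dnah5-gated nuclei, 72.6 ± 44.7 CPM, was 28.7% of its level in the astrocyte-gated nuclei. The part of astrocyte transcripts in the Mical2 and Pdlim5 values was not tested.

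**Figure D2:**
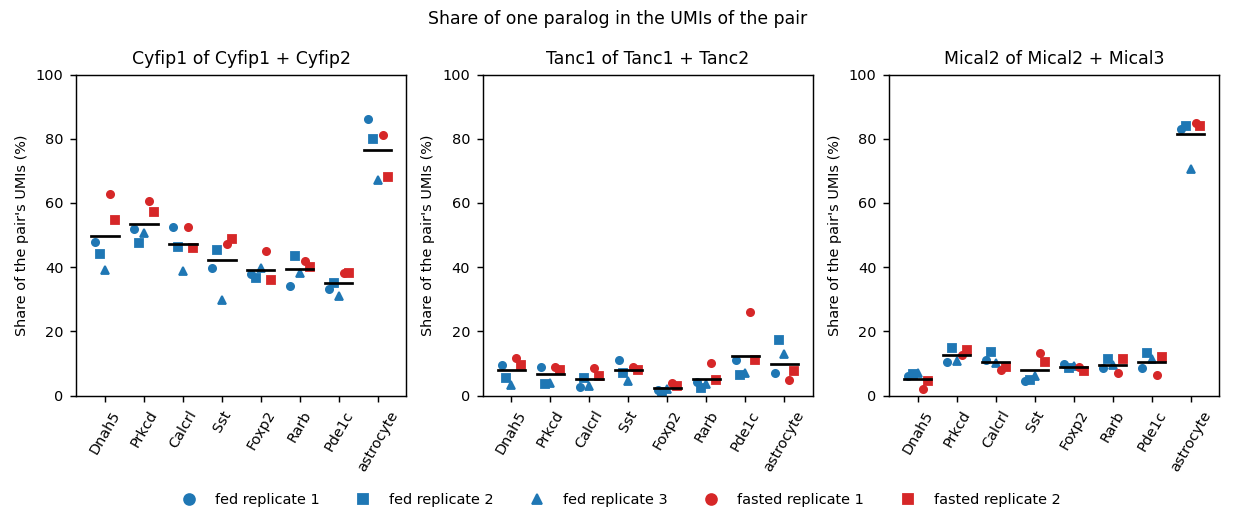
Share (%, y axis 0 to 100) of the first paralog in the summed UMIs of 3 pairs, in the 7 gated neuronal classes and the astrocyte-gated nuclei (x axis), with 1 point per library (blue fed, red fasted) and a line at the mean. Mical2 gives 5.29% to 12.5% of its pair in the neuronal classes and 81.4% in the astrocyte-gated nuclei.

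Fed and fasted libraries of the Dnah5-gated nuclei, the contrast on which the study picked its genes, differed as follows. Fitted differences (fasted minus fed, log2 ± SE) were positive for Tanc1 (0.67 ± 0.31), Cyfip1 (0.59 ± 0.23), Dapk1 (0.50 ± 0.22) and Mical3 (0.25 ± 0.22). They were negative for Pdlim5 (-1.42 ± 0.41), Mical2 (-0.81 ± 0.29), Cyfip2 (-0.34 ± 0.19) and Tanc2 (-0.28 ± 0.21). Other measures also moved with feeding. The median share of mitochondrial UMIs was 0.317% and 0.237% in fasted replicates 1 and 2, above the 0.136%, 0.0788% and 0.0529% of fed replicates 1, 2 and 3. In the Dnah5-gated nuclei 6 oligodendrocyte markers summed to 256 and 259 CPM in the fasted and 228, 120 and 147 CPM in the fed libraries. That was on average 1.10% of their level in the St18-gated nuclei. The sum was also higher in both fasted libraries in the Prkcd-, Calcrl-, Sst- and Pde1c-gated nuclei, narrowly in the last (165 against 163 CPM). In the Foxp2- and Rarb-gated nuclei the fed and fasted libraries overlapped. Each of the 6 had UMIs in at least 1 library of the Dnah5-gated nuclei. The part of these measures in the differences was not tested.

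The fitted differences of the paralogs had opposite signs in each of the 3 pairs, which was not tested, and the sign of Mical3 turned without fasted replicate 1 (-0.07). In CPM, both fasted libraries lay above all fed libraries for Cyfip1 and Tanc1 (2 of 8 members, where 11.0% of all genes did so) and below them for Cyfip2 and Mical2 (2 of 8, where 8.41% did). Tanc2, Dapk1, Pdlim5 and Mical3 overlapped. For Dapk1 the overlap was narrow, 664 CPM in fasted replicate 2 and 672 CPM in fed replicate 1. The Tanc1 values were 81.6, 62.7 and 33.2 CPM in the fed and 92.0 and 90.5 CPM in the fasted libraries, and those of Tanc2 were 790, 1062 and 951 CPM and 690 and 867 CPM.

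**Figure D3:**
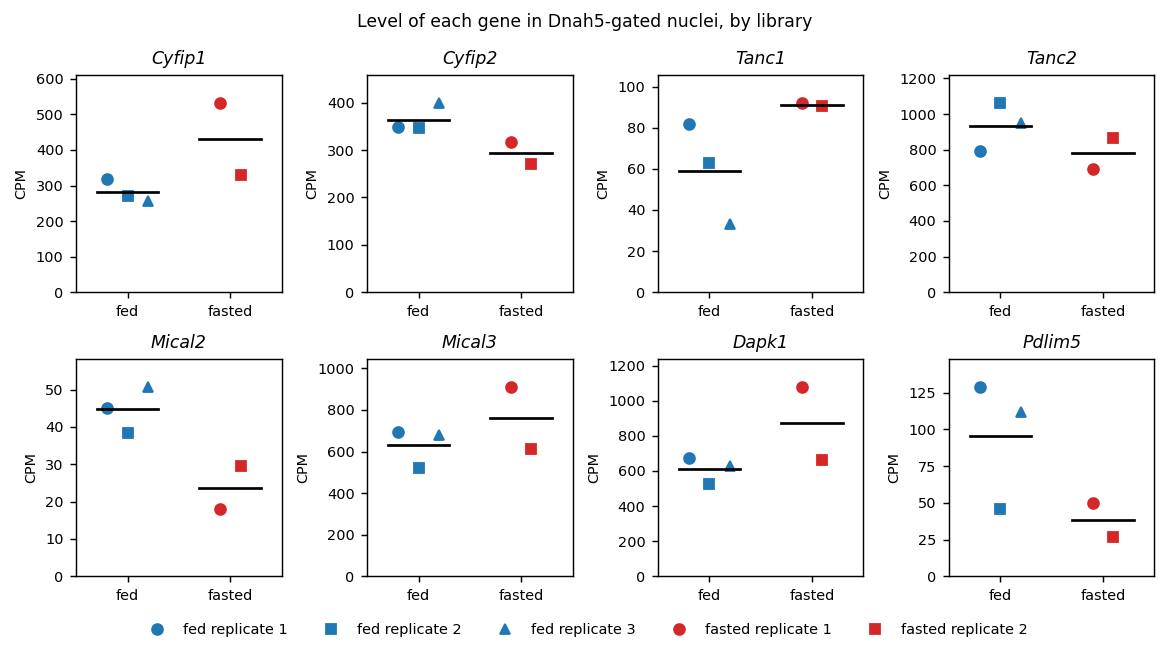
Level (CPM, y axis from 0) of 8 members in the Dnah5-gated nuclei of 3 fed (blue) and 2 fasted (red) libraries, with 1 point per library and a line at each group's mean. The fasted points lie above all fed points for Cyfip1 and Tanc1 and below them for Cyfip2 and Mical2.

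The study states that libraries numbered 1 were prepared as 1 batch and libraries numbered 2 as another. If its numbers are the replicate numbers used here, the ratio of fasted to fed can be read within a batch. It was 1.67 in batch 1 and 1.21 in batch 2 for Cyfip1, 1.60 and 1.27 for Dapk1, and 1.13 and 1.44 for Tanc1. It was 0.399 and 0.768 for Mical2, 0.388 and 0.595 for Pdlim5, and 0.909 and 0.784 for Cyfip2. For Mical3 the ratio was 1.31 and 1.17, and for Tanc2 0.874 and 0.816. Fasted replicate 1 was the highest library for Cyfip1, Dapk1 and Mical3 and the lowest for Mical2 and Tanc2. For Tanc1 it was narrowly the highest, at 92.0 CPM against 90.5 CPM in fasted replicate 2. Without fasted replicate 1 the differences were 0.20 for Cyfip1, 0.10 for Dapk1 and -0.07 for Mical3, and that of Pdlim5 was -1.79. Without fed replicate 3 the difference of Tanc1 was 0.33, and without fasted replicate 2 those of Mical2 and Pdlim5 were -1.32 and -0.89. Fasted replicate 1 also had the lowest median depth. With nuclei under 4000 UMIs left out, the others thinned to that number and the gates halved, which took 247 Dnah5-gated nuclei, the differences were 0.88 for Cyfip1, 0.64 for Dapk1, -1.19 for Mical2 and -0.63 for Pdlim5.

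In the 6 other gated classes none of the 48 comparisons of a member passed (edgeR quasi-likelihood test, the likelihood ratio test and DESeq2). By the first of these tests 0.0908% of the comparisons of all genes passed. An unadjusted p under 0.05 was found in 10 of the 48, and in 4.69% of the comparisons of all genes. With the replicate number as a block 1 passed, Tanc1 in the Rarb-gated nuclei, where 0.693% of all genes did. Cyfip1, Tanc1 and Dapk1 had positive fitted differences in 7 of 7 classes and Tanc2 had negative ones in 7 of 7. These classes share their 5 libraries, so their signs are not independent of one another. Cyfip2 and Pdlim5 were negative in 6 of 7. With the replicate number as a block Tanc1 and Cyfip1 were negative in the Sst-gated nuclei (-0.29 and -0.18), and Cyfip2 and Pdlim5 were negative in 5 of 7.

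Tanc1 had its highest fasted minus fed differences outside the Dnah5 class. They were 1.19 ± 0.35 (SE, log2) in the Pde1c-gated and 1.10 ± 0.29 in the Rarb-gated nuclei, against 0.02 ± 0.33 in the Sst-gated nuclei. In the Rarb-gated nuclei Tanc1 was at 37.7, 22.1 and 32.6 CPM in the fed and 82.5 and 48.5 CPM in the fasted libraries, so that both fasted libraries lay above the fed ones, as in 8.61% of all genes there. The range of Dapk1 was narrower, from 0.24 to 0.50 over the 7 classes, and that of Cyfip1 went from 0.03 in the Foxp2-gated to 0.59 in the Dnah5-gated nuclei. Whether these differences vary between classes was not tested. Over all 6020 inhibitory nuclei Tanc1 was at 39.1, 34.2 and 33.8 CPM in the fed and 70.8 and 52.5 CPM in the fasted libraries. The fitted difference there was 0.77 ± 0.17, and 0.70 ± 0.10 with the replicate number as a block. These nuclei include the Dnah5-gated ones, where the study picked Tanc1 on this contrast, so the difference is a description and no p-value is given.

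Within the 7 tested classes Mical2 was the 1 member whose libraries separated in both directions. The share of all genes that did so over the 7 classes was not counted, so nothing particular to Mical2 is read from this. In the Sst-gated nuclei it was at 35.9, 28.6 and 39.5 CPM in the fed libraries (5, 18 and 20 UMIs) and 105.4 and 61.0 CPM in the fasted libraries (31 and 74 UMIs). In the Prkcd-gated nuclei the values were 68.0, 81.3 and 66.1 CPM and 90.9 and 99.1 CPM. Both classes thus had both fasted libraries above the fed ones, as 11.7% and 12.8% of all genes did there, with fitted differences of 1.14 ± 0.34 and 0.39 ± 0.20. The Dnah5-gated nuclei had them below, with -0.81 ± 0.29, and so did the Calcrl-gated nuclei (9.61% of all genes), with -0.45 ± 0.22.

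**Figure D4:**
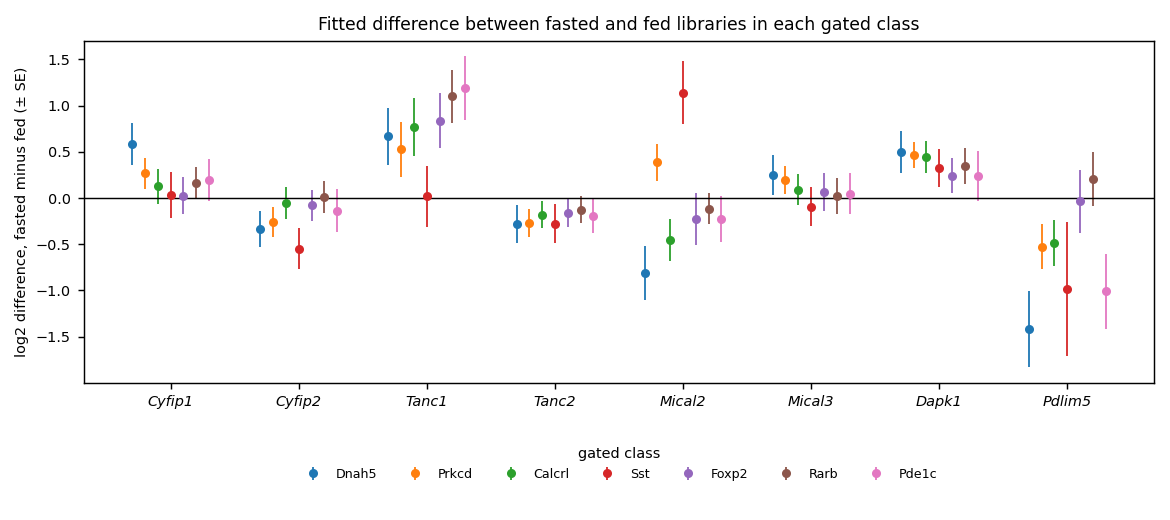
Fitted log2 difference of fasted minus fed libraries (y axis, points, with bars of ± 1 SE) for 8 members (x axis) in the 7 gated classes (colours). In this fit, without the replicate number as a block, points of Tanc1 and Dapk1 lie above 0 and those of Tanc2 below 0 in every class. Points of Mical2 run from -0.81 (Dnah5) to 1.14 (Sst).

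Other genes of the same pathways were taken from 8 lists with 100 genes, none of them a member, of which 87 were tested in the Dnah5-gated nuclei. None passed in the comparison of fasted with fed libraries (edgeR quasi-likelihood test, the likelihood ratio test and DESeq2), where 0.0228% of all genes did by the first of these, 2 of 8765. An unadjusted p under 0.05 was found for 4 of them, 4.60%, and for 5.51% of all genes. The median log2 difference was -0.00 over the lists and over all genes tested, from -0.13 in the PDLIM, DAPK and alpha-actinin list to 0.27 in the Arp2/3 list.

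Between classes more of the pathway genes passed, and so did more of all genes, 1927 of 10086 against 2 of 8765 for feeding. The class fit used the sums of all tested classes, and the feeding fit those of the Dnah5-gated nuclei alone. These counts therefore do not compare how much the genes varied. Against the other classes, 20 of the 89 list genes tested were higher and 6 lower in the Dnah5-gated nuclei by the edgeR quasi-likelihood test, 29.2% in all where 19.1% of all genes passed. In the list of the WAVE complex, Wasf3, a WAVE subunit, was higher by a log2 difference of 0.76 ± 0.07 SE and was the only 1 of 12 that passed. Of the spine actin-binding proteins 5 of 13 were higher, led by Add2 (0.46 ± 0.06), Map1b (0.37 ± 0.07) and Myo5a (0.21 ± 0.06).

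Postsynaptic scaffolds went both ways, with 2 of 14 higher and 4 lower, led by Homer2 (1.17 ± 0.11), Dlg2 (-0.31 ± 0.06) and Dlgap1 (-0.39 ± 0.08). Among MICAL-like proteins and partners the semaphorin receptor Nrp1 was higher (1.67 ± 0.11) and Plxna1 (-1.13 ± 0.20) and Nrp2 (-0.85 ± 0.18) were lower. Sipa1l1 (0.30 ± 0.06) and the alpha-actinin Actn2 (0.48 ± 0.12) were the 2 of 7 that passed in the PDLIM, DAPK and alpha-actinin list, to which Sipa1l1 had been added. The Arp2/3 subunits Actr3b (0.34 ± 0.10) and Actr3 (0.27 ± 0.10) and the LIM kinase Limk2 (0.29 ± 0.08) were also higher.

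The genes whose mean levels over the 7 classes were most like those of each member were found by Pearson's r of log2(mean CPM + 1) among 9395 genes, as a description over 7 points that share libraries. They were Nat10, Heatr1 and Asxl1 for Cyfip1 (r = 0.990 to 0.986) and Tln2, Nfasc and Lancl1 for Cyfip2 (0.981 to 0.980). For Tanc1 they were Zfp40, Polm and Bcl11b (0.960 to 0.944), and for Tanc2 Cog6, Ermard and Nlgn1 (0.947 to 0.938). Actn1, Pgs1 and Rab6b were most like Dapk1 (0.988 to 0.976), and Tagln3, Stx12 and Trim9 most like Pdlim5 (0.988 to 0.981). Mical2 was closest to Antxr1, Pim2 and Poc1b (0.986 to 0.977), and Mical3 to Slc25a51, Catsperg1 and Spg11 (0.956 to 0.952). No list holds a paralog of its member.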

How the data were processed

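Single nuclei of 5 CeA libraries were analysed from raw UMI counts per gene and barcode that the authors deposited. Per the file headers, the counts were made by the authors with Cell Ranger 5.0.0; the study's methods give GRCm39 with Cre and mCherry sequences and intronic reads, while the submitters' processing notes name mm10 and Cell Ranger 2.1.1. The members, lists and gates were chosen with earlier results of these data known, and the gate thresholds and their order were set after the count files were seen.

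Nuclei with 500 to 8000 genes and under 0.8% mitochondrial UMIs were kept. Inhibitory nuclei (at least 1 Gad1 or Gad2 UMI) passed the gates in the order Pde1c (8 UMIs or more), Foxp2 (4), Dnah5 (4, and more than Prkcd), Calcrl (3), Prkcd (3), Vdr (2), Rarb (4), Sst (3), Dlk1 (3) and Tac1 (2), each taken by the first it passed. Gates on UMIs favour deep nuclei, and 107 to 335 nuclei per library passed several. Other nuclei were gated on Slc1a2 (10) or St18 (3). No doublet caller was run. Counts were summed per class and library, 139421 to 3714555 UMIs, where every library had 10 nuclei.

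Sums were tested with edgeR 4.0.16 (R 4.3.3; TMM, filterByExpr, quasi-likelihood test, Benjamini-Hochberg, 0.05), feeding per class without covariates and classes with the library as a block; both fits were checked on simulated counts. The SE of a log2 difference was the absolute difference divided by the square root of its quasi-likelihood F statistic. Paralog shares were compared with an exact two-sided sign-flip permutation test, added after the data were seen. The study's legend says that its datasets Fed_1 and Fast_1 were prepared together, and Fed_2 and Fast_2 together. That these are fed and fasted replicates 1 and 2 was inferred from the numbers, and the sample labels do not state it. Deviations of same-numbered libraries from their group means correlated at 0.0336 to 0.435 over genes, above 0.1 in 12 of 14. With 2 fasted libraries the values of a class are not independent. Median depth was also lower in replicates 1 (8326 UMIs fed, 6608 fasted) than in replicates 2 (14886 and 16367), so these values cannot tell a shared preparation from depth. DESeq2 1.42.0 and the other alternatives are given with the limits. Genes outside the members were named when they passed in the Dnah5-gated nuclei, up to 3 per list, and by likeness; the result of 1 list is not reported here. Pools of mice give no spread between animals, and the precision of a single library value was not measured.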

Additional observations from a re-analysis of the deposited data

Results flagged for a closer look

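Within the 7 tested classes Mical2 was the 1 member whose fasted libraries all lay above the fed libraries in some classes and all below them in others. How many of all genes did so was not counted, and the classes compared next were picked by this separation. The fasted minus fed log2 difference of the Prkcd-gated nuclei exceeded that of the Dnah5-gated nuclei by 1.20 and that of the Calcrl-gated nuclei by 0.84. That of the Sst-gated nuclei exceeded the same classes by 1.96 and 1.59. These differences between classes were not tested, and the Mical2 sums rest on few UMIs. There were 183 in all in the Dnah5-gated and 148 in the Sst-gated nuclei, with 5, 18 and 20 in the fed libraries of the latter. Groups of 3 and 2 libraries are too small for a search for single outlying libraries.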

How the results depend on the processing

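In the Dnah5-gated nuclei 4 of 8 members had higher fasted values in the main analysis and 3 to 5 in its alternatives (3 to 4 when a library was left out, 5 with no filter on low counts, which adds Mical1). In the other classes the count of members called went from 0 to 2 with no filter on low counts, to 1 with the replicate block and to 1 without fasted replicate 2 (leaving out a library gave 0 to 1). These calls were of Tanc1. In the 7 tested classes the replicate block changed no other call of a member. Over all inhibitory nuclei and over those that passed no gate it added Tanc1. Nothing is read from that, since Tanc1 was picked on fed against fasted in these libraries. The block moved the count of all genes called from 2 to 14 in the Dnah5-gated, from 8 to 185 in the Prkcd-gated, from 31 to 5 in the Foxp2-gated and from 0 to 123 in the Rarb-gated nuclei. Fed replicate 3 adds nothing to the difference in that fit. Members called in the Dnah5-gated nuclei against the other classes numbered 5 in the main analysis, 4 to 6 in most alternatives and 2 in the fed libraries. The list genes gave 0 calls throughout, and the calls over all classes numbered 15 to 21 against 18. Of the single values between classes, 687 kept their call, 16 lost it and 9 gained it, and none changed sign while called. The Sst-gated nuclei gave no value at a doubled gate or when thinned, where a library had under 10 nuclei.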
